A study of Mus musculus with 12 samples.

Results

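The cytosolic ribosomal proteins are the proteins that, with the ribosomal RNAs, make up the ribosome of the cytoplasm. Their genes were taken by symbol: Rpl or Rps with a number and at most one of the suffix letters a, l or x, plus Rpsa, Rplp0, Rplp1 and Rplp2. This rule found 81 of the 24421 gene symbols measured, 49 for the large subunit and 32 for the small subunit. It uses no measured value. It leaves out, among others, Rps3a1, Fau, Rpl36al and Rpl22l1, which also encode ribosomal proteins or a close paralogue.

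The measurements were mRNA sequencing of RAW 264.7 cells, a mouse macrophage line from the BALB/c strain. Of 12 libraries, 2 came from each of 6 groups. Parp14 knockout (KO, Parp14 -/-) cells either received lipopolysaccharide (LPS), an outer membrane glycolipid of Gram-negative bacteria, for 2 h or were left untreated. Wild-type (WT) cells received LPS for 2 h together with a Jak inhibitor, the inhibitor alone, LPS alone for 2 h, or nothing. Parp14 encodes an ADP-ribosyltransferase, and Jak kinases relay the signals of interferons and many cytokines. No source used here names the inhibitor or its dose, or says how many clones made up the KO cells. A further 4 columns of the table have headers that name KO cells with the inhibitor, with and without LPS, but match no labelled sample; they were not used, so effects of the inhibitor are given only for WT cells. The labels do not say that replicates were separate cultures, so the p-values rest on the spread between libraries, which may be technical.

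Each ribosome carries a single copy of almost every ribosomal protein, and the stalk proteins Rplp1 and Rplp2 are the exception. Most of these genes are transcribed at high and similar rates in growing cells. Their mRNAs begin with a run of pyrimidines at the cap, the terminal oligopyrimidine (TOP) motif, through which mTORC1 and Larp1 set their translation and stability. Translation itself was not measured here.

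Libraries held 35940669 to 45662896 reads in genes. Parp14 was measured at 34.9 and 40.5 CPM (reads per 1000000 gene reads) in KO cells with LPS and at 10.0 and 11.97 CPM in untreated KO cells. WT cells had 315 and 419 CPM of Parp14 with LPS and 76.4 and 99.7 CPM untreated, so the KO libraries were low as labelled. All 14 macrophage markers were expressed, with a sum of 12843 to 17065 CPM per library, and markers of lymphocytes (0.275 to 0.957 CPM) and of stromal, epithelial and endothelial cells (0.0515 to 0.523 CPM) were close to 0. Alignments with no unique position were left out of the gene counts, and made up 33.2 to 34.9% of alignments in KO libraries and 28.6 to 32.1% in WT libraries.

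Ribosomal protein mRNAs together took 7.06 and 6.51% of gene reads in KO cells with LPS and 6.95 and 6.28% in untreated KO cells. In WT cells the share was 7.51 and 6.56% with LPS plus the inhibitor, 6.84 and 6.02% with the inhibitor, 6.80 and 6.32% with LPS, and 6.604 and 6.22% untreated. The first value of each pair is replicate 1, and it was the higher in all 6 groups. The groups overlapped, and replicate 1 was 1.06 to 1.15 times replicate 2. Within a replicate number, LPS over untreated was 1.015 and 1.04 in KO cells and 1.03 and 1.02 in WT cells, and LPS plus the inhibitor over the inhibitor was 1.098 and 1.09. Because these are shares of all gene reads in bulk samples, less ribosomal protein mRNA per cell and more of other mRNAs cannot be told apart.

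**Figure D1:**
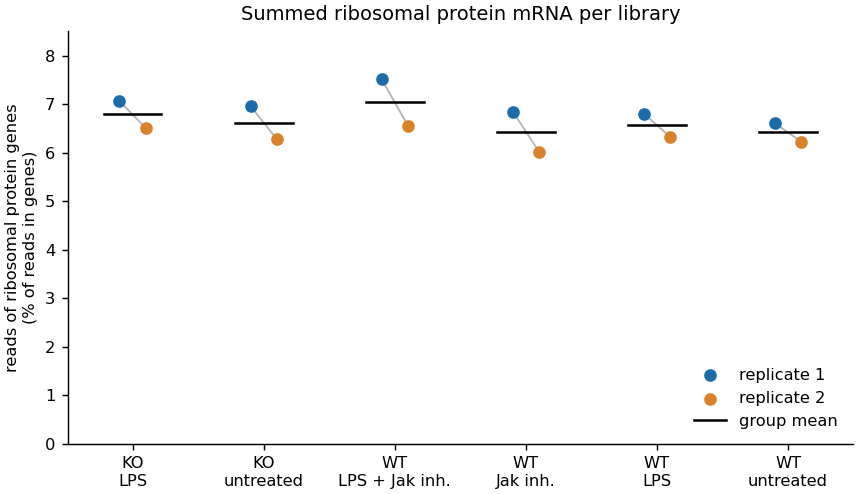
Share of gene reads (%, y axis) that fell in the 81 ribosomal protein genes, for the 12 libraries in 6 groups (x axis); points are libraries joined within a group, and black lines are group means. Replicate 1 lies above replicate 2 in all 6 groups, and the whole range is 6.02 to 7.51%.

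The large and small subunits kept step. The summed reads of large-subunit genes were 1.48, 1.48, 1.48 and 1.49 times those of small-subunit genes in the KO libraries and 1.45 to 1.47 times in the WT libraries. Of the 81 genes, 76 had at least 1 CPM in at least 2 libraries and were tested, 45 of the large and 31 of the small subunit. Among them 73 had a mean over the 12 libraries of 177 to 2465 CPM, and the median of the 76 was 842 CPM.

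Per kilobase of transcript, the highest mean levels were those of Rplp1 at 2722 CPM per kb, Rps12 at 2335 CPM per kb, Rps27a at 2290 CPM per kb and Rpl41 at 2016 CPM per kb. Rplp1 is a stalk protein that recruits translation factors, Rps27a is made as a fusion with ubiquitin, and Rpl41 is the smallest ribosomal protein. Outside the rule, Rps3a1 was at 2367 CPM per kb. The median of the 73 expressed members was 1103 CPM per kb. Rps27l, a paralogue of Rps27 known as a p53 target, was at 354 CPM per kb, near the low end.

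The paralogues known from other tissues were nearly silent. Rpl3l, known from heart and skeletal muscle, had 103 reads over all 12 libraries and 0.0523 to 0.355 CPM, against 1782 to 2119 CPM for Rpl3. Rpl39l, known from testis, had 9 reads in all. Rpl10l, also known from testis, had 0 reads in every library, which allows up to 0.0657 to 0.0835 CPM per library by counting error alone, while Rpl10 had 1184 to 1553 CPM. Rps4l had 1 read. Rpl7 and Rpl7a share a name stem but encode different proteins, and both were abundant, with 1460 to 1903 CPM for Rpl7 and 1303 to 1501 CPM for Rpl7a.

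A further 4 genes, whose proteins are standard parts of the ribosome, were measured far below the rest. Rpl26 had 5 reads in all, and the means were 2.99 CPM for Rpl30, 3.03 CPM for Rps27 and 4.38 CPM for Rpl34. Many ribosomal protein genes have processed pseudogenes, which carry near copies of the spliced mRNA, and a read that matches more than one place has no unique position. Of 80 annotated members, 77 shared at least one stretch of 50 coding bases with a transcript of another gene, and 44 shared over 90% of such stretches. The shared part was 87.3% for Rpl26, 83.1% for Rpl30, 100% for Rps27 and 72.2% for Rpl34. It was also 100% for Rps6, Rpl41 and Rps27a, which were abundant. Across the 76 tested members the shared part and the level per kilobase had a Spearman correlation of -0.000703, a description over genes that differ in length and copies. Whether lost reads account for the 4 low values was not tested, and they are read here as counts and not as levels of mRNA.

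**Figure D2:**
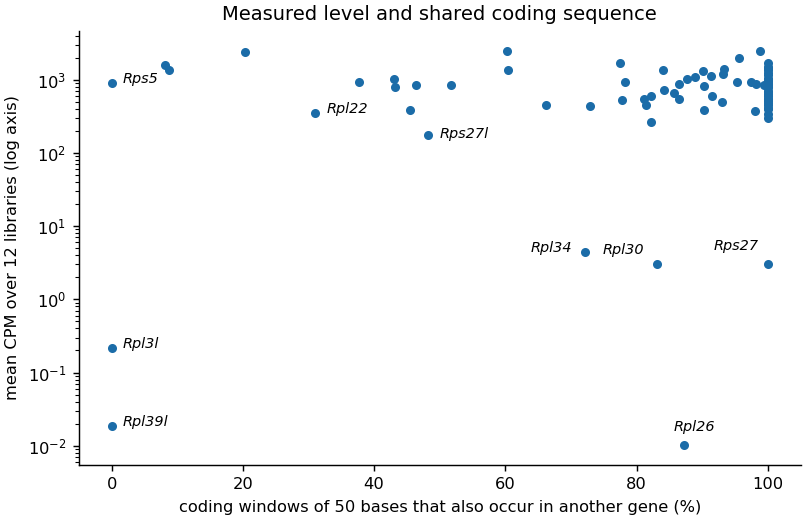
Mean level over 12 libraries (CPM, log y axis) against the share of 50-base coding stretches that also occur in a transcript of another gene (%, x axis), one point per annotated ribosomal protein gene with any read. Most genes lie at 177 CPM or more at every degree of sharing, and Rpl26, Rpl30, Rps27 and Rpl34, like Rpl3l and Rpl39l at 0% shared, lie far below them.

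With LPS, few ribosomal protein genes moved beyond the spread between libraries on gene-read scaling without the replicate block, in either genotype. In KO cells with LPS over untreated KO cells, 0 of 76 members passed the limma test at an adjusted p of 0.05 (1 at an unadjusted p below 0.05), against 66.7% of all 10899 tested genes, with 13.9% higher and 52.7% lower. In WT cells with LPS over untreated WT cells, 1 member was called higher and 1 lower, against 13.7% and 53.6% of all tested genes. The median change of the members was 0.02 on the log2 scale in KO cells and 0.02 in WT cells, while the median of all tested genes was -0.29 in KO cells and -0.30 in WT cells. Within 0.25 of 0 on that scale lay 97.4% of members and 32.3% of all tested genes in KO cells, and 98.7% of members and 32% of all tested genes in WT cells.

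Whether the members count as unchanged or as higher depends on the scale. Scaling by the median of ratios, which sets the typical gene near 0, moved the median of all tested genes to -0.03 in KO cells and -0.04 in WT cells. On that scale the members' median was 0.30 in KO cells and 0.31 in WT cells, with 47 members higher in KO cells and 41 in WT cells and 0 lower in both, beside 26.7% and 26.4% of all tested genes called higher. The edgeR test, which also scaled the libraries in its own way, called 47 higher in KO cells and 48 in WT cells. Beside them stood 27.7% and 28% of all tested genes. Relative to the median of all tested genes, the members' median was 0.31 higher in KO cells and 0.32 higher in WT cells with gene-read scaling, and 0.33 and 0.35 with the median of ratios. With the replicate number as a block, gene-read scaling gave 12 higher and 4 lower in KO cells, beside 18.3% and 62.2% of all tested genes, and 11 higher and 4 lower in WT cells, beside 18% and 62.8%.

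**Figure D3:**
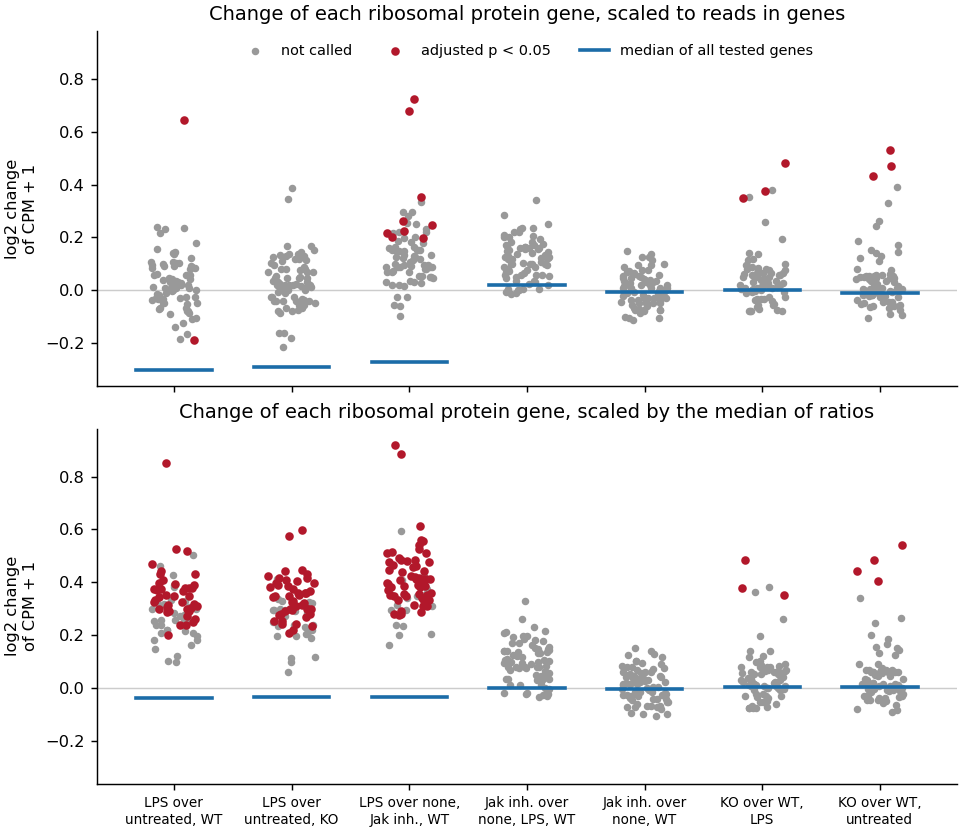
Log2 change of CPM + 1 (y axis) of each of the 76 tested ribosomal protein genes in 7 comparisons (x axis), with gene-read scaling above and the median of ratios below; red points passed an adjusted p of 0.05 and blue lines are the median of all tested genes. In the 3 LPS comparisons the points lie above the blue line on both scales, and only the lower panel has most of them called.

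The stalk proteins and the members known for work outside the ribosome stayed within this narrow range on gene-read scaling. Rplp0, the base of the stalk, had 2720.5 and 2606 CPM in KO cells with LPS and 2473 and 2431 CPM in untreated KO cells, against 2416 and 2430.2 CPM in WT cells with LPS and 2439.99 and 2309 CPM in untreated WT cells. Rpsa, which also serves as a laminin receptor precursor, had 2669.9 and 2539 CPM in KO cells with LPS and 2372 and 2265 CPM without. In WT cells Rpsa was at 2553 and 2439 CPM with LPS and at 2333 and 2373 CPM without. Both genes had higher values with LPS than without in both KO libraries. Such separation in KO cells held for 16 of 76 members and 18.9% of all tested genes. The changes in KO cells (0.12 for Rplp0 and 0.17 for Rpsa) passed on gene-read scaling only with the replicate block. The adjusted p were 0.0449 and 0.00799 from limma.

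Rps3, which is also known as a partner of NF-kB p65, did not pass in either genotype on gene-read scaling, with changes of -0.08 in KO cells and -0.08 in WT cells. Rps6, the substrate of S6 kinase, changed by 0.09 in KO cells and 0.14 in WT cells, and on that scaling passed in WT cells only with the block (adjusted p = 0.0131 from limma). Rps19, mutated in human Diamond-Blackfan anaemia, changed by 0.12 in KO cells, where on that scaling it passed only with the block (adjusted p = 0.0447 from limma), and by 0.06 in WT cells. By the median of ratios Rplp0, Rpsa, Rps6 and Rps19 were called higher in both genotypes. Rpl5 and Rpl11, which bind Mdm2 when ribosome assembly fails, changed by 0.01 and 0.03 in KO cells and by 0.10 and 0.06 in WT cells, with standard errors of 0.18 and 0.11. Rpl13a, known in human monocytes to leave the ribosome and join the GAIT complex that silences inflammatory mRNAs, changed by -0.09 in KO cells and -0.09 in WT cells and passed in neither. Rplp2, the partner of Rplp1 in the stalk, changed by 0.02 and 0.04.

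Rpl41 was the 1 member called lower by LPS in WT cells. It had 813 and 789.8 CPM in WT cells with LPS and 924 and 905 CPM in untreated WT cells, and the groups did not overlap. Wholly below untreated WT cells lay 7 of 76 members and 64.5% of all tested genes. In KO cells the Rpl41 values were 869 and 897 CPM with LPS and 913 and 883 CPM without, which overlap. The change in WT cells was -0.19 ± 0.06 (SE, log2), with an adjusted p of 0.0185 from limma. It was 0.10 by the median of ratios and 0.12 by edgeR, neither called, so its direction rests on the scale, and its adjusted p ranged from 0.0403 to 0.0987 when single libraries were left out. In KO cells the lowest change was that of Rpl22 at -0.22, with an adjusted p of 0.122.

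Rps27 was the 1 member called higher in WT cells, at 3.85 and 3.29 CPM with LPS and 2.104 and 1.75 CPM untreated, a change of 0.64 ± 0.17 with an adjusted p of 0.00697 from limma. In KO cells it had 4.42 and 2.88 CPM with LPS and 2.61 and 2.405 CPM untreated, a change of 0.39 with an adjusted p of 0.0656. Rps27 is one of the 4 genes with very few assigned reads, 1439 over all libraries, so this describes the reads that were placed there and not the whole of its mRNA. The difference between the LPS responses of KO and WT cells passed for 0 of 76 members with limma, 0 with the replicate block and 0 with edgeR, beside 0.413% of all tested genes with limma and 3.79% with the block; at an unadjusted p below 0.05 limma also gave 0. The members' differences, KO minus WT, lay between -0.26 for Rps27 and 0.17 for Rpl41. Of 7 tested ribosome genes outside the rule, 2 were higher and 0 lower in each genotype. Fau and Rpl36al were not among them: Fau changed by 0.16 in KO cells and 0.02 in WT cells, and Rpl36al by -0.004 in KO cells and -0.15 in WT cells.

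Gene groups around the ribosome were counted in the same way, with no test between lists. Among all tested genes, gene-read scaling called 13.9% higher and 52.7% lower in KO cells, and 13.7% and 53.6% in WT cells. The median of ratios called 26.7% higher in KO cells and 26.4% in WT cells. It called 3608 of 10899 genes lower in KO cells and 3537 in WT cells. The counts of the lists below stand beside these shares. Of 72 ribosome biogenesis genes, 28 were higher and 6 lower with LPS in KO cells and 30 higher and 8 lower in WT cells, with a median change of 0.15 in both. By the median of ratios 53 were higher and 1 lower in KO cells and 49 higher and 1 lower in WT cells. In WT cells Rrs1, an assembly factor of the large subunit, rose by 0.92, Nop58, a core protein of box C/D snoRNPs, by 0.81, and Gnl2, a nucleolar GTPase, by 0.71. Ubtf, the RNA polymerase I transcription factor, fell by 0.54 in WT cells. Myc, the transcription factor that drives many of these genes, rose by 4.997 in KO cells and 5.15 in WT cells, while its antagonist Mnt changed by -1.69 and -2.17. The MYC network list held 1 gene higher and 7 lower of 10 in each genotype, and by the median of ratios 1 higher and 5 lower in each. Of 17 p53 targets, 7 were higher and 6 lower in KO cells and 6 higher and 6 lower in WT cells. Of 6 GAIT genes, 0 were higher and 2 lower in each, Dapk1 and Dapk3, but by the median of ratios 3 were higher and 1 lower in KO cells and 2 higher and 1 lower in WT cells. By the median of ratios the p53 targets had 8 higher and 4 lower in KO cells and 6 higher and 4 lower in WT cells.

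Of 77 mitochondrial ribosomal protein genes, 2 were higher and 30 lower in KO cells and 2 higher and 29 lower in WT cells, with medians of -0.19 and -0.16, although the median of ratios turned this to 22 higher and 12 lower in KO cells and 27 higher and 12 lower in WT cells. Mrps35 changed by -0.92 in KO cells and -0.87 in WT cells, and was lower on both scales. Of 21 translation factors and other genes with TOP mRNAs, 3 were higher and 1 lower in KO cells and 4 higher and 1 lower in WT cells, and by the median of ratios 17 higher and 1 lower in each. Naca, a chaperone for nascent chains, rose by 0.44 and 0.46, and Eif4b, an initiation factor, changed by -0.63 and -0.57. Of 21 regulators of TOP mRNA and mTORC1, 1 was higher and 9 lower in KO cells and 1 higher and 12 lower in WT cells, and by the median of ratios 7 higher and 5 lower and 5 higher and 7 lower. Among them Depdc5, a brake on mTORC1, changed by -1.085 and -1.104, and Eif4ebp2, a repressor of cap-dependent translation, by -1.13 and -1.05.

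**Figure D4:**
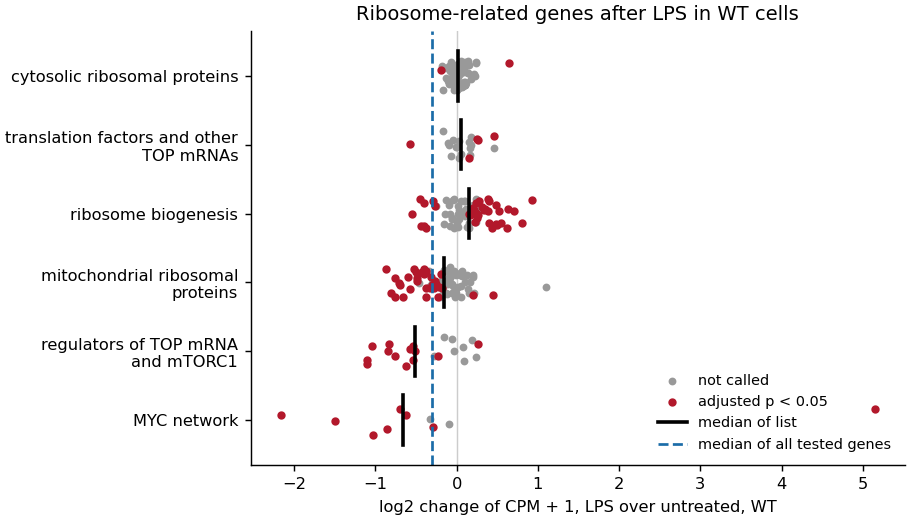
Log2 change of CPM + 1 in WT cells with LPS over untreated WT cells (x axis) for 6 gene lists (y axis); each point is a gene, red points passed an adjusted p of 0.05, black bars are list medians and the dashed line is the median of all tested genes. The ribosomal proteins cluster around 0.02, biogenesis genes spread to higher values, and Myc stands alone at 5.15.

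KO cells differed from WT cells in a handful of ribosomal protein genes. Untreated KO cells against untreated WT cells, and KO cells with LPS against WT cells with LPS, each had 3 members higher and 0 lower of 76, and in both it was Rpl22, Rps25 and Rpl4. Both shares are close to the background, since 4.31% of all tested genes were higher and 5.37% lower untreated, and 6.19% higher and 7.66% lower with LPS. The median change of the members was 0.02 untreated and 0.03 with LPS, and 92.1% of members lay within 0.25 of 0 in each. The lowest changes were those of Rps15 untreated, at -0.104, and Rpl17 with LPS, at -0.08, neither called. With the replicate block 7 members were higher in each comparison, beside 10.9% and 14.9% of all tested genes.

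Rpl22, a large-subunit protein that binds RNA and is not needed for translation in general, had 399.9 and 369.8 CPM in KO cells with LPS and 294 and 258 CPM in WT cells with LPS. Untreated KO cells had 484 and 412 CPM and untreated WT cells 321 and 298 CPM. All 4 KO libraries lay above all 4 of these WT libraries. Within a treatment, KO libraries lay wholly above WT libraries for 23.8% of all tested genes with LPS and 21.4% untreated. The change of Rpl22 was 0.48 ± 0.11 with LPS and 0.53 ± 0.11 untreated, with adjusted p of 0.0205 and 0.0177 from limma, or folds of 1.396 and 1.44.

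Rps25, a small-subunit protein known for its part in initiation from viral internal ribosome entry sites, had 1046 and 1007 CPM in KO cells with LPS and 846 and 738 CPM in WT cells with LPS. Untreated, it had 1087 and 951 CPM in KO cells and 755 and 712 CPM in WT cells. Again the KO libraries lay above the WT libraries. The changes were 0.38 and 0.47, with adjusted p of 0.0439 and 0.0217 from limma. Rpl4, which lines the exit tunnel of the large subunit, had 2858 and 2871 CPM in KO cells with LPS and 2331 and 2168 CPM in WT cells with LPS. Untreated, it had 2919.7 and 2725 CPM in KO cells and 2095 and 2088 CPM in WT cells. Its changes were 0.35 and 0.43, with adjusted p of 0.0146 and 0.00723 from limma.

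The calls were close to the threshold. They kept their direction when each library was left out in turn, but passed for 0 to 3 members untreated and 0 to 2 with LPS. Untreated, all 3 remained without replicate 2 of the KO cells and 0 without replicate 1 of the KO cells or either WT library; with LPS, 2 were called without replicate 1 of the WT cells and 0 without any other library. With no filter on low values only Rpl22 was called with LPS (adjusted p = 0.0405 from limma). The KO differences of Rpl22, Rpl4 and Rps25 with LPS minus untreated were -0.05, -0.08 and -0.10, none called.

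With the replicate block, 4 further members were called in each comparison. Untreated these were Rps27l, Rplp1, Rps10 and Rps20, and with LPS they were Rplp1, Rpl34, Rps27l and Rpl41. Another gene overlaps 91.6% of the exon bases of Rps10. Rplp1 had 1747 and 1382 CPM in KO cells with LPS and 1339 and 1065 CPM in WT cells with LPS, and 1653 and 1425 CPM in untreated KO cells and 1353 and 1103 CPM in untreated WT cells. Within each replicate number the KO library was the higher one, and the KO and WT groups did not overlap within a treatment. Such non-overlap, with KO above, held for 23.8% of all tested genes with LPS and 21.4% untreated. Rps27l had 189 and 183 CPM in KO cells with LPS and 167 and 144 CPM in WT cells with LPS, and 225 and 197 CPM in untreated KO cells and 169 and 152 CPM in untreated WT cells.

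Rpl22l1, the paralogue that can take the place of Rpl22 in the ribosome, was lower in KO cells with LPS. In mice Rpl22 is known to hold down Rpl22l1. Rpl22l1 had 78.6 and 65.6 CPM in KO cells with LPS and 122 and 98.8 CPM in WT cells with LPS, against 89.4 and 66.3 CPM in untreated KO cells and 105 and 92.5 CPM in untreated WT cells. No KO library reached the lowest WT library of its own treatment. That also held for 25.6% of all tested genes with LPS and 26.6% untreated. Rpl22l1 changed by -0.61 ± 0.17 with LPS (adjusted p = 0.0465 from limma) and by -0.35 ± 0.17 untreated (adjusted p = 0.310, or 2.0e-04 with the block). Its coding stretches were 84.2% shared, and another gene overlaps 28.8% of its exon bases.

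**Figure D5:**
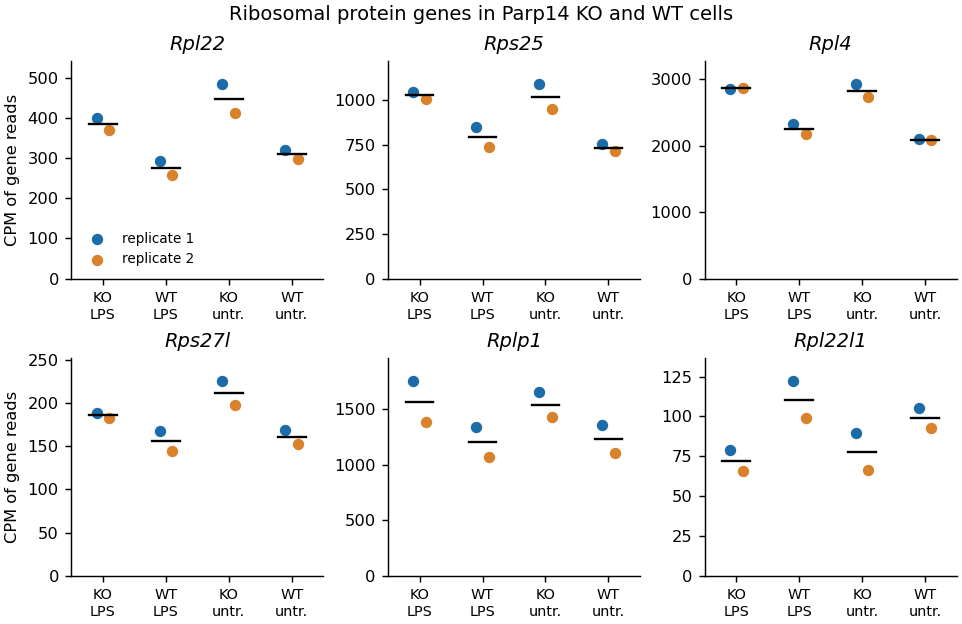
CPM (y axis, from 0) of 5 ribosomal protein genes and the paralogue Rpl22l1 in KO and WT cells with LPS and untreated (x axis); points are libraries coloured by replicate number, and lines are group means of 2 libraries. For Rpl22, Rps25 and Rpl4 every KO library lies above every WT library shown, and Rpl22l1 is lower in KO cells.

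Other measures differed between KO and WT cells as well. Among all tested genes, 6.19% were higher and 7.66% lower in KO cells with LPS, and 4.31% and 5.37% untreated. Of 14 macrophage markers, 1 was higher and 4 lower in KO cells with LPS, and 1 higher and 3 lower untreated. Their summed level was 12843 to 14012 CPM in KO cells with LPS and 15219 to 15388 CPM in WT cells with LPS, and 13932 to 16379 CPM in untreated KO cells and 15256 to 17065 CPM in untreated WT cells. Adgre1 (F4/80), a marker of mature macrophages, changed by -1.301 with LPS and by -0.95 untreated on the log2 scale, the lowest of the 14. The highest changes among the 14 were 0.58 with LPS and 0.62 untreated, and 2 and 3 markers had positive changes. Alignments without a unique position were also more frequent in KO libraries. The part of these in the ribosomal protein differences was not tested, and the number of KO clones is unknown. Coding stretches shared with another gene were 31.0% for Rpl22, 20.3% for Rpl4 and 98.2% for Rps25.

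Among the wider lists, 5 of 72 ribosome biogenesis genes were higher and 0 lower in KO cells with LPS, and 4 higher and 0 lower untreated. Of all tested genes, 6.19% were higher and 7.66% lower with LPS, and 4.31% and 5.37% untreated. The counts of biogenesis genes called higher are close to these shares, and the lists below stand beside the same shares. Ddx10, an RNA helicase of ribosome assembly, was higher by 0.53 and 0.50 in the same pair of comparisons. Of 21 regulators of TOP mRNA and mTORC1, 3 were higher with LPS and 0 untreated. These were Ddit4 at 0.92 and Sesn2 at 0.85, which restrain mTORC1, and Eif4ebp1 at 0.82, which restrains cap-dependent translation. The difference between the LPS responses of KO and WT cells passed for 0 of the 21, beside 0.413% of all tested genes. With the replicate block it passed for 2, beside 3.79%. Untreated, the changes of this list ran from -0.16 to 0.45. Of the 17 tested p53 targets and regulators, a list that also holds Rps27l, 1 was higher and 3 lower with LPS, and 3 higher and 0 lower untreated.

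Of the 3 genes called in KO cells, Rpl4 and Rps25 lie on chromosome 9 and Rpl22 on chromosome 4. In GRCm38, Rpl22 (ENSMUSG00000028936.15) spans chr4:152325742-152334071 on the plus strand, Rpl4 (ENSMUSG00000032399.8) chr9:64173375-64178666 on the plus strand, and Rps25 (ENSMUSG00000009927.9) chr9:44407139-44410427 on the plus strand. Rpl22l1 (ENSMUSG00000039221.10) spans chr3:28805436-28807424 on the plus strand. Their start regions are shown because these genes differed between KO and WT cells, and that of Rpl41 is set beside them as the member called lower by LPS. Each sequence runs from 40 bases before to 20 bases after the RefSeq start (GRCm38.p6), 5′ to 3′ on the gene's strand, with the longest run of pyrimidines that overlaps the 25 bases on either side of the start in capitals.
Rpl22, chr4:152325686-152325745: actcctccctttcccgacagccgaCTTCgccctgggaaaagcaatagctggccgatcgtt
Rpl4, chr9:64173347-64173406: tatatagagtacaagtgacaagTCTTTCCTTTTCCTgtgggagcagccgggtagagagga
Rps25, chr9:44407674-44407733: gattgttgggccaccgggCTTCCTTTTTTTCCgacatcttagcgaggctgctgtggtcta
Rpl22l1, chr3:28805468-28805527: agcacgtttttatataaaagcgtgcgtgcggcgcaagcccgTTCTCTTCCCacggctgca
Rpl41, chr10:128549149-128549208: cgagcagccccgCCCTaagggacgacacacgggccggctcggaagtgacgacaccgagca

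The run is 14 bases in Rpl4 and 14 bases in Rps25, and 4 bases in Rpl22 and 4 bases in Rpl41. In Rpl22 a longer pyrimidine run, in lower case, ends just outside the 25-base window, so its short value rests on that limit. It also rests on the RefSeq start. The GENCODE transcript start of Rpl22 (chr4:152325853) lies beyond the printed region, and the bases around it were not examined. The marked runs of Rpl4, Rps25, Rpl22 and Rpl41 lie wholly before the RefSeq start, so by that start they are not part of the mRNA. The GENCODE transcript starts of Rpl4 (chr9:64173375) and Rps25 (chr9:44407697) fall inside their marked runs. By those starts a part of each run is in the mRNA. Which start these cells use was not tested, and the runs are not called TOP motifs here. Promoter entries were matched for 60 of the 81 members. Among these 36 (60.0%) had a run of at least 8 pyrimidines that overlapped the 25 bases on either side of the start, against 24.0% of 27025 promoters in the table, and 27 (45.0%) had a run of at least 10, against 11.9%. The motif CCGGAAG, read on both strands, was in 23 promoters (38.3%), against 9.12% of all. The motif AANATGGC was in 10 (16.7%), against 6.23%, and TATAAA was in 5 (8.33%), against 14.2%. Several motifs can share a promoter, and a match is a description of these letters only. Where a symbol had several entries, members took the one nearest the GENCODE transcript start. The 27025 promoters were the first entry of each symbol, so the compared shares come from entries chosen in different ways.

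The Jak inhibitor alone gave no call among the ribosomal protein genes. In WT cells with the inhibitor over untreated WT cells, limma called 0 of 76 members and 0% of all tested genes, and edgeR also called 0. At an unadjusted p below 0.05 there were 0 members and 111 genes. The changes of the members lay between -0.11 for Rpl18 and 0.15 for Rpl39, with a median of 0.01. In WT cells with LPS plus the inhibitor over WT cells with LPS, 71 of 76 members had positive changes, against 6229 of 10899 tested genes, and the median was 0.12, against 0.02 for all tested genes. This median was 0.00677 without replicate 1 of LPS plus the inhibitor, 0.218 without its replicate 2, 0.171 without replicate 1 of LPS and 0.0641 without its replicate 2. By limma 0 of 76 passed (5 at an unadjusted p below 0.05), beside 1.11% of all tested genes, and edgeR called 0. Changes ran from -0.01 for Rps6 to 0.34 for Rpl34. With the replicate block 7 were higher, beside 1.68% of all tested genes: Rpl41, Rps18, Rplp2, Rpl22, Rps14, Rplp1 and Rpl36. The members' summed level was 1.105 times that in WT cells with LPS for replicate 1 and 1.04 times for replicate 2.

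Under the inhibitor, LPS raised 9 of 76 members and lowered 0, relative to the inhibitor alone, a share near the 13.5% of all tested genes called higher, while 50.8% were lower. With the block 39 were higher, beside 18.4%, with the median of ratios 59, beside 26.4%, and with edgeR 63, beside 28%. The members called were Rps27, Rpl34, Rpl36, Rpl8, Rpl18, Rps14, Rplp0, Rpsa and Rps2, with changes of 0.20 to 0.73, and the median of all 76 was 0.12 against -0.27 for all tested genes. Rps27 and Rpl34 are among the genes with few assigned reads. Leaving out a library moved the count between 2 and 18: it was 2 without replicate 1 of LPS plus the inhibitor or replicate 2 of the inhibitor, 9 without replicate 1 of the inhibitor, and 18 without replicate 2 of LPS plus the inhibitor.

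Rpl36, a large-subunit protein, had 473 and 403 CPM in WT cells with LPS plus the inhibitor and 360.3 and 324 CPM with the inhibitor alone, a change of 0.35 ± 0.10 with an adjusted p of 0.0138 from limma. Rpl18, of the large subunit, had 948 and 891 CPM with LPS plus the inhibitor and 783 and 765 CPM with the inhibitor, a change of 0.25 ± 0.06 with an adjusted p of 0.00657. Rps14, of the small subunit, had 980.1 and 899.7 CPM with both and 841 and 770.3 CPM with the inhibitor, a change of 0.22 ± 0.07. All 3 genes had no overlap between the groups. LPS plus the inhibitor lay wholly above the inhibitor for 25 of 76 members and 18.4% of all tested genes. In the same cells without the inhibitor, Rps14 was at 814 and 782 CPM with LPS and 858 and 839 CPM untreated. The LPS library values there lie below the untreated ones, as for 7 of 76 members and 64.5% of all tested genes. The difference between the LPS responses with and without the inhibitor passed for 0 of 76 members (6 at an unadjusted p below 0.05), beside 0.587% of all tested genes, and for 0 with edgeR. With the block it passed for 3, beside 1.22% of all tested genes called higher.

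The replicate number went with a difference in the members as well. Replicate 1 was higher than replicate 2 for 68 of 76 tested members in KO cells with LPS and 72 in untreated KO cells. In WT cells it was higher for 76 with LPS plus the inhibitor, 74 with the inhibitor, 59 with LPS and 70 untreated. The median member was 1.06 to 1.15 times as high in replicate 1, while the median of all tested genes differed by -0.01 to 0.02 on the log2 scale. Among the 73 members with a mean of at least 100 CPM, Rpl27a had the highest mean ratio, 1.41, with 826 and 568 CPM in KO cells with LPS and 626 and 491 CPM in untreated WT cells, and Rpl27 the smallest, 0.977. The labels do not say what the numbers stand for, and the cause of the difference was not tested.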

How the data were processed

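RNA from 12 libraries (6 groups of 2) was sequenced from a TruSeq mRNA preparation. Per the submitters' processing notes, the authors used TopHat2 2.1.0, HTSeq and edgeR on mm10 (GRCm38). Their HTSeq and edgeR versions, annotation and strand setting are not stated. Values were deposited as CPM for each gene symbol, scaled by the authors over all counted alignments including 5 lines that name no gene. Genes held 58.9 to 64.1% of alignments; these lines held the rest and were left out, and the CPM were rescaled to gene reads. All values were whole reads within 0.02 reads, 100% of those above 0, so read counts were recovered for edgeR. A further 4 per-sample columns were not used.

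A gene entered the test when 2 or more libraries reached 1 CPM. The test was limma 3.58.1 (R 4.3.3, trend) on log2(CPM + 1), which understates changes of low genes, in a single fit of 6 group means, and adjusted by Benjamini-Hochberg over 10899 genes (threshold 0.05). With 2 libraries against 2, an exact two-sided test cannot go below 0.333. Settings changed were the pseudocount (0.25), the filter (none or 5 CPM), the deposited scaling, the median of ratios and scaling to the summed members. Further settings were edgeR 4.0.16 quasi-likelihood on recovered counts, the replicate number as a block, and each library left out. Each was changed alone, but edgeR also applied its own scaling of the libraries. Its calls therefore differ from the main ones in both test and scaling. Replicate 1 minus 2 differences across genes correlated between all 15 group pairs (0.468 to 0.737). The replicate block therefore treats the numbers as a pairing, which comes from the data and not from the labels. The main fit does not use this pairing, so its spread between libraries includes the difference between replicate numbers. The test was checked on simulated data, but no result of that check is used here for the choice of scaling or of pairing.

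Positions came from GENCODE M21 (GRCm38) and start regions from RefSeq (GRCm38.p6). Named members are those with a fixed role, paralogue pairs, up to 5 called members with the largest change per direction, and the lowest and highest change. The members and lists were chosen with earlier results of these data known. Overlapping genes and antisense reads cannot be told apart without strand: in 9 of 80 annotated members over 10% of the exons overlap another gene, among them Rps10, Rpl13a and Rpl5.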

Additional observations from a re-analysis of the deposited data

Results flagged for a closer look

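For 3 members the LPS response in WT cells differed with and without the Jak inhibitor when the replicate number was a block, by the interaction term of limma. The difference, with the inhibitor minus without, was 0.287 for Rpl18 (adjusted p = 0.0399), 0.279 for Rpl41 (adjusted p = 0.024) and 0.31 for Rps14 (adjusted p = 0.016) on the log2 scale. Without the block the adjusted p were 0.448, 0.425 and 0.444, and edgeR gave 0.612, 0.601 and 0.6001, so the calls rest on the block. Beside them, 1.22% of all tested genes were called higher for this difference with the block. Their cause was not tested.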

How the results depend on the processing

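For the LPS response in KO cells the number of members higher was 47 by the median of ratios, 47 by edgeR, 12 with the replicate block and 1 with scaling to the summed members, and the number lower was 4 with the replicate block and 2 with scaling to the summed members. The median change there was 0.299 by the median of ratios, 0.317 by edgeR and -0.0154 with scaling to the summed members, and the summed level was 0.314 by the median of ratios. For the LPS response in WT cells the number higher was 41 by the median of ratios, 48 by edgeR, 11 with the replicate block and 0 with the filter of 5 CPM, which drops Rps27, and the number lower was 0 by the median of ratios, 0 by edgeR and 4 with the replicate block. Its median was 0.308 by the median of ratios, 0.327 by edgeR, -0.0238 with the deposited scaling and -0.0133 with scaling to the summed members, and its summed level was 0.322 by the median of ratios and -0.0108 with the deposited scaling. For LPS with the inhibitor the number higher was 59 by the median of ratios, 63 by edgeR, 39 with the replicate block and 2 with scaling to the summed members, with medians of 0.386, 0.414 and, for the summed members, -0.00372, and a summed level of 0.391 by the median of ratios.

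For untreated KO cells against WT cells the number higher was 7 with the replicate block, the median -0.0698 with the deposited scaling and -0.0242 with scaling to the summed members, and the summed level -0.0446 with the deposited scaling. For KO against WT cells with LPS the number higher was 7 with the replicate block and 1 with no filter, the median -0.0323 with the deposited scaling and -0.0197 with scaling to the summed members, and the summed level -0.0125 with the deposited scaling. For the inhibitor in LPS-treated WT cells the number higher was 7 with the replicate block, and the median 0.0211 with scaling to the summed members. For the difference of the LPS response by inhibitor the number higher was 3 with the replicate block. Its median was 0.0824 by the median of ratios, 0.0867 by edgeR, 0.154 with the deposited scaling and 0.0141 with scaling to the summed members, and its summed level 0.0694 by the median of ratios and 0.141 with the deposited scaling. By the median of ratios all 76 members had positive LPS changes in each genotype, against 50 in KO cells and 47 in WT cells on gene-read scaling, so many single genes turned direction, Rps3, Rpl13a and Rpl22 among them in both genotypes. Of the named genes called on one of the scales these were Rps27a in KO cells with LPS (0.253 by the median of ratios, 0.265 by edgeR), Rpl41 in WT cells with LPS (0.0979 by the median of ratios, 0.12 by edgeR) and Rps3 in WT cells with LPS (0.232 by edgeR).

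Leaving out single libraries gave these ranges. The LPS response in KO cells had 0 to 1 members higher, a median of -0.0497 to 0.0968 and a summed level of -0.0357 to 0.112. In WT cells it had 1 higher, 0 to 1 lower, a median of -0.0212 to 0.072 and a summed level of -0.0203 to 0.085. LPS with the inhibitor had 2 to 18 higher, a median of 0.0344 to 0.221 and a summed level of 0.0274 to 0.225. Untreated KO against WT cells had 0 to 3 higher, a median of -0.0634 to 0.0948 and a summed level of -0.0307 to 0.117. With LPS, KO against WT cells had 0 to 2 higher, a median of -0.0332 to 0.0947 and a summed level of -0.0123 to 0.106. The difference by genotype had a median of -0.0935 to 0.0759 and a summed level of -0.069 to 0.0786. The inhibitor alone had a median of -0.0959 to 0.11 and a summed level of -0.0915 to 0.0941, and the inhibitor in LPS-treated cells 0.00677 to 0.218 and -0.00159 to 0.195. The difference by inhibitor had a median of -0.0021 to 0.205 and a summed level of -0.00586 to 0.192. The causes of these changes were not tested. A group left with 1 library is assumed to vary like the other groups. With 2 libraries a group, which calls are made depends on whether the replicate numbers are taken as a pairing.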
